A study of Mus musculus with 58 samples.

Results

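The unfolded protein response (UPR) genes described here were 10 listed symbols, Hspa5, Hsp90b1, Calr, Pdia6, Pdia4, Sdf2l1, Dnajb9, Herpud1, Xbp1 and Ddit3, out of 55376 gene symbols in the RNA-seq count files. They were followed by name through every RNA-seq library of hematopoietic stem cells (HSCs) in a mouse study of caloric restriction (CR). All 10 passed the filter on low counts in every comparison. The diet groups were HSCs of male C57BL/6 mice, sorted as LSK CD34-Flk2-CD150+ cells. By the study's methods, the old mice were obtained from the NIA Aged Rodent Colony and the young mice from The Jackson Laboratory. Old mice of 24 to 26 months were fed ad libitum (OAL, 4 libraries), kept on a lifelong 40% restriction begun at 3 to 4 months (OCR, 4 libraries), or restricted and then refed ad libitum for 4 weeks (OCRRF, 2 libraries). Young mice of 3 to 4 months were fed ad libitum (YAL, 4 libraries), restricted for 4 weeks at 20% in the first week and 40% in the following 3 weeks (YCR, 4 libraries), or refed for 4 weeks after that restriction (YCRRF, 4 libraries). For the knockdowns, HSCs of aged mice received a GFP lentivirus with a Kdr shRNA and an mCherry lentivirus with 1 of 2 Bmpr1a shRNAs. Controls received GFP and mCherry scramble lentiviruses. Kdr knockdown cells (KdrKD, 4 libraries) were set against GFP scramble cells (GScr, 2 libraries). Double knockdown cells (DKD1 and DKD2, 2 libraries each) were set against double scramble cells (DScr, 2 libraries). Whether single and double libraries share infections or recipients is not given in the sources used here. The infected cells were cultured for about a day and, without a sort for GFP or mCherry, transplanted into lethally irradiated young female CD45.1 recipients, from which donor HSCs were sorted as LSK CD48-CD150+CD45.2+ cells. Scramble controls were taken after transplantation as GFP+ or GFP+mCherry+ cells.

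When unfolded proteins gather in the endoplasmic reticulum (ER), the sensors IRE1, PERK and ATF6 start the UPR. IRE1 splices the mRNA of Xbp1, ATF6 is cut to release a transcription factor, and PERK slows translation while favouring ATF4 and its target Ddit3. ATF6 and spliced XBP1 raise chaperones, foldases and the machinery that disposes of misfolded proteins, in part through ER stress elements in their promoters. HSCs make protein slowly, and a prolonged UPR is known to cost them survival and function. Counts per gene cannot separate spliced from unspliced Xbp1 mRNA, and none of these libraries measured protein.

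The 10 genes divide by role. Hspa5 (BiP; chr2:34771970-34777547, mm10) is the ER Hsp70 chaperone that also holds the sensors inactive, Hsp90b1 (GRP94; chr10:86690209-86705509) is the ER Hsp90 chaperone, and Calr (chr8:84841850-84846934) is the lectin chaperone calreticulin. Pdia6 (chr12:17266545-17284770) and Pdia4 (chr6:47796141-47813430) are protein disulfide isomerases. Sdf2l1 (chr16:17130138-17132383) works with BiP and its cochaperones, and Dnajb9 (ERdj4; chr12:44205559-44210326) is a BiP cochaperone. Herpud1 (chr8:94386438-94395377) is a membrane component of ER-associated degradation (ERAD). Xbp1 (chr11:5520659-5525893) and Ddit3 (CHOP; chr10:127290774-127296288) encode transcription factors. All are protein-coding genes, and the symbol Ddit3 belongs to 2 gene models that the counts do not separate.

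The promoter sequence at a single RefSeq start site per member divided the members into those with and those without a full stress element. The gene models of Dnajb9 and Pdia4 given above start outside the window searched, and other start sites were not searched. Of 32817 RefSeq promoters, each 250 bases before to 50 bases after a start site and searched on both strands, 39 (0.119%) held the full ER stress element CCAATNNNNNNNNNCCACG. Those of Hspa5, Hsp90b1, Pdia6 and Calr were among them. The matched sites are shown because these 4 genes recur in the comparisons that follow, with the fixed letters of the element in capitals and the spacer in lower case, each read 5′ to 3′ on the strand of the match.

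Hspa5 at -65: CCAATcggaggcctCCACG

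Hsp90b1 at -212: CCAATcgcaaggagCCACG

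Hsp90b1 at -107: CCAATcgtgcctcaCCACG

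Pdia6 at -98: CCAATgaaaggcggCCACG

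Calr at -162: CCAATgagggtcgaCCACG

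Herpud1 at -52: ATTGGgCCACG

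Positions count from the start site to the first base of the match on the gene's strand. The Hsp90b1 site at -107 and the Calr site lay on the strand opposite to the gene. Herpud1 held the other arrangement known as ER stress element II, an inverted CCAAT box 1 base before CCACG, which occurred in 12 promoters (0.0366%). No member held the UPR element core TGACGTGG, which was present in 0.676% of promoters. The short boxes were common: CCAAT, which both elements contain, stood in 37.4% of all promoters and in those of 9 members, and CCACG stood in 32.8% and in those of 8 members. Xbp1 held neither box in this window.

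The 250 bases before the RefSeq start sites (GRCm38.p6, written on the strand of each gene) follow for 4 members that show the range: a single element close to the start site, a pair of elements, element II, and boxes without a full element. Capitals mark the fixed letters of a full element or, for Sdf2l1, every box, and boxes on the opposite strand read CGTGG and ATTGG.

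Hspa5 (chr2:34771840-34772089, + strand): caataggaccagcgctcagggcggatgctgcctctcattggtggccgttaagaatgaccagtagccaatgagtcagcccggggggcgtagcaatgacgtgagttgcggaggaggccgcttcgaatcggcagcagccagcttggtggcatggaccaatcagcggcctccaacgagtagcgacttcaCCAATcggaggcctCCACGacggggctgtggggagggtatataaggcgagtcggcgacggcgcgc

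Hsp90b1 (chr10:86705445-86705694, - strand): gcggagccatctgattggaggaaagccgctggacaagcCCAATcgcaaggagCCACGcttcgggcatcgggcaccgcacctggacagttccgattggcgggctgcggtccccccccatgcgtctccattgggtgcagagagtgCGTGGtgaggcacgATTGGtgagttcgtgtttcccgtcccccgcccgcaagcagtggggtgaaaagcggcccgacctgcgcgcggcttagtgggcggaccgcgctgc

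Herpud1 (chr8:94386179-94386428, + strand): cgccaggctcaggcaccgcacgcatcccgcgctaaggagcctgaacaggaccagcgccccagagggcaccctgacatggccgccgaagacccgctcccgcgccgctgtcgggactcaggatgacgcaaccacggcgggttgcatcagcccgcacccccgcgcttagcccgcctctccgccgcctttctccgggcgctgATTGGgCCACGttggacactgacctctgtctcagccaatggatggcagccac

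Sdf2l1 (chr16:17132384-17132633, - strand): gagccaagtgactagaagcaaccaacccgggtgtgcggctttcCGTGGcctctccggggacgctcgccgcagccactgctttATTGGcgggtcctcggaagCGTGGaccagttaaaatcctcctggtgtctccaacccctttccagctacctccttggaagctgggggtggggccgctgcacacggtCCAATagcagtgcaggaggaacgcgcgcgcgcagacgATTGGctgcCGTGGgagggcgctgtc

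Sdf2l1 carried 4 CCAAT and 3 CCACG matches in its promoter window, and no pair of them had the orientation and spacing of either element. A letter match is a description of the sequence and was not tested for binding.

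**Figure D1:**
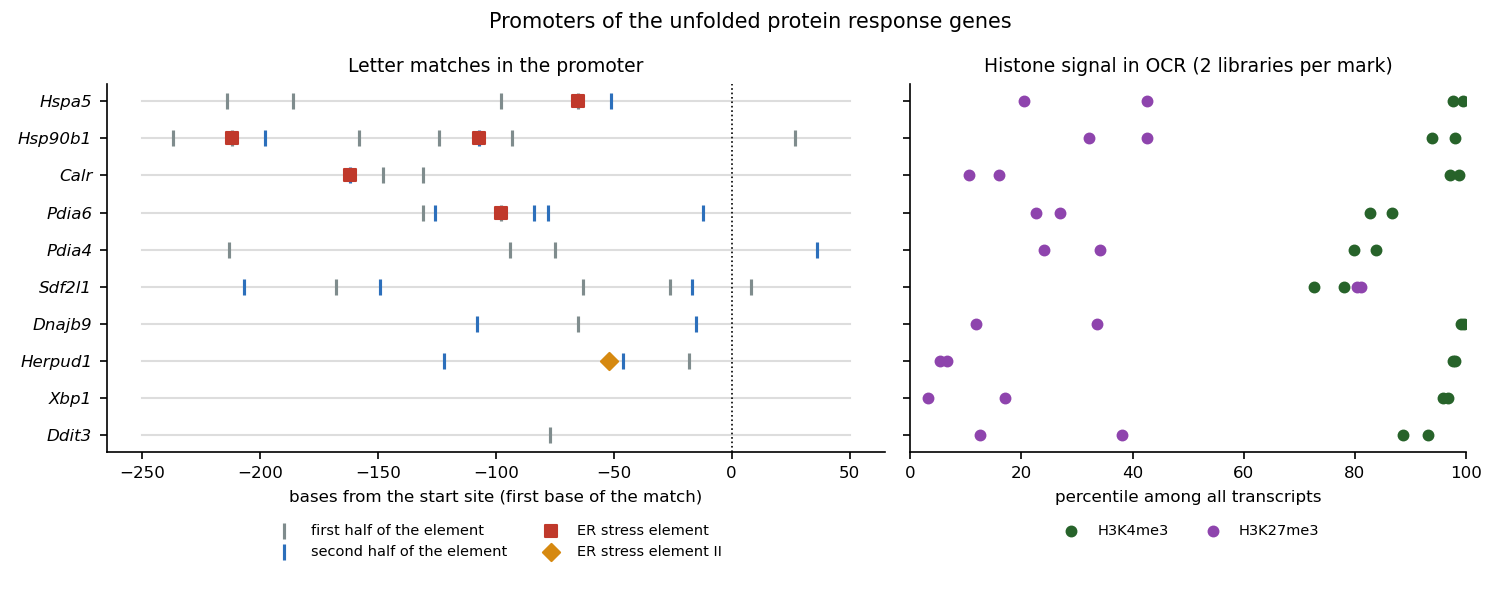
Left, letter matches along each promoter, in bases from the RefSeq start site (dotted line), with red squares for the ER stress element, an orange diamond for element II, and grey and blue ticks for the CCAAT and CCACG boxes. Right, the percentile of H3K4me3 (green) and H3K27me3 (purple) promoter signal among 31552 transcripts in 2 OCR libraries per mark: H3K4me3 lay at percentile 72.6 or above for every member, and H3K27me3 of Sdf2l1 lay at 80.4 and 81.2.

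The diet libraries held 23497989 to 34385179 counts in old and 11102898 to 36579392 in young mice, with 42071 to 46646 and 22209 to 33496 genes detected. The transplanted libraries held 35657999 to 44780217 counts. Summed stem cell markers stood at 3510 to 4990 CPM (depth-normalised counts, TMM-scaled) in all diet libraries and T cell markers at no more than 3.45 CPM. Neutrophil lineage markers ranged from 125 to 1840 CPM in the diet libraries and from 439 to 4720 CPM in the transplanted libraries. The study counts the RNA-seq libraries of the old and young diet groups by mice, while the labels tie no library to an animal. The p-values therefore measure the spread between libraries, part of which may be technical. YCRRF replicate 3 stood apart from its group, with a chi-square per degree of freedom over genes of 153 to 336 against the other 3 YCRRF libraries, which differed among themselves by 28.4 to 56.4. In bulk libraries, fewer cells of a type and less RNA per cell cannot be told apart.

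Compared per kilobase of exon, the members spanned a wide range in OAL HSCs. Calr was highest at 217 ± 13.1 CPM per kb (SD, n = 4), followed by Hspa5 at 86.7 ± 11.1, Hsp90b1 at 68.4 ± 3.73, Pdia6 at 64.8 ± 2.97 and Pdia4 at 56.0 ± 2.76. Xbp1 stood at 48.6 ± 9.39, Herpud1 at 39.5 ± 3.43, Dnajb9 at 20.1 ± 1.51, Ddit3 at 14.9 ± 0.222 and Sdf2l1 at 11.9 ± 3.13 CPM per kb. The ranges of Hsp90b1 and Pdia6, of Pdia4 and Xbp1, and of Xbp1 and Herpud1 overlapped, and the other neighbours in this order did not. In OCR HSCs Sdf2l1 moved from the last place to the 7th, at 41.4 ± 13.6 CPM per kb, where its range overlapped those of Xbp1 (48.8 ± 5.76) and Herpud1 (40.3 ± 4.42). Calr remained first in each of the 6 diet groups, from 184 ± 31.1 in OCRRF to 312 ± 32.9 in OCR.

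To see how lifelong CR relates to the UPR genes of old HSCs, OCR was set against OAL. The chaperones, the disulfide isomerases and Sdf2l1 were higher in OCR, 6 of the 10 members in all, and Sdf2l1 had the largest fold, 3.52. The transcription factors Xbp1 and Ddit3, the cochaperone Dnajb9 and the ERAD component Herpud1 did not pass the test. Each of the 6 was called by edgeR's quasi-likelihood test at a Benjamini-Hochberg adjusted p below 0.05 with a fold above 1.2, a rule that called 5.57% of the 27150 genes tested. The median log2 fold change of the 10 members was 0.51, against 0.02 over all genes tested.

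Hspa5 read 315, 356, 368 and 428 CPM in OAL and 492, 597, 683 and 684 CPM in OCR. Every OCR library was above every OAL library, and the log2 fold change was 0.76 (SE 0.102, adjusted p = 6.35e-06 by edgeR), a fold of 1.70. Hsp90b1 rose from 256, 272, 282 and 292 CPM to 442, 498, 542 and 567 CPM, a log2 fold change of 0.91 (SE 0.0864, adjusted p = 2.07e-08 by edgeR). For both chaperones the highest OAL library lay below the lowest OCR library. Exons of 1810014B01Rik, a transcribed pseudogene on the opposite strand, cover 10.3% of the Hsp90b1 exon bases. The strand setting of the counting is not given in the sources used here, so reads over these shared bases cannot be assigned to either gene. Calr measured 578, 628, 629 and 670 CPM in OAL and 813, 822, 966 and 995 CPM in OCR. Its log2 fold change was 0.54 (SE 0.0852, adjusted p = 8.29e-05 by edgeR), again without overlap.

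The disulfide isomerases moved the same way. Pdia6 measured 229, 239, 248 and 254 CPM in OAL and 336, 340, 419 and 449 CPM in OCR, a log2 fold change of 0.69 (SE 0.0913, adjusted p = 5.8e-06 by edgeR). Pdia4 measured 126, 132, 137 and 142 CPM against 156, 173, 203 and 210 CPM, a log2 fold change of 0.48 (SE 0.0906, adjusted p = 0.000661 by edgeR). For both isomerases the OCR libraries were spread more widely than the OAL libraries.

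Sdf2l1 had the largest change of the members, from 8.25, 13.6, 14.8 and 16.2 CPM in OAL to 30.6, 35.6, 56.5 and 60.9 CPM in OCR. The log2 fold change was 1.81 (SE 0.182, adjusted p = 5.8e-08 by edgeR), a fold of 3.52. The OCR libraries themselves fell into a lower and an upper pair for this gene. The 6 members called were also the members in which every OCR library lay above every OAL library, a pattern met by 4.24% of all genes tested.

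The remaining members did not separate the groups. Dnajb9 read 48.6, 48.9, 50.5 and 56.9 CPM in OAL and 40.0, 44.0, 47.2 and 51.6 CPM in OCR (log2 fold change -0.15, SE 0.0957, adjusted p = 0.503 by edgeR). Herpud1 read 84.6, 89.0, 91.8 and 103 CPM against 79.5, 94.1, 99.5 and 103 CPM (log2 fold change 0.05, SE 0.0912). The promoter of Herpud1 holds element II, and its OAL and OCR values covered the same range. Xbp1 was at 135, 143, 151 and 203 CPM in OAL and 132, 159, 170 and 173 CPM in OCR (log2 fold change 0.02, SE 0.107), and Ddit3 at 25.1, 25.3, 25.5 and 26.0 CPM against 19.6, 23.5, 25.6 and 26.6 CPM (log2 fold change -0.08, SE 0.11). Both transcription factors overlapped between the groups.

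**Figure D2:**
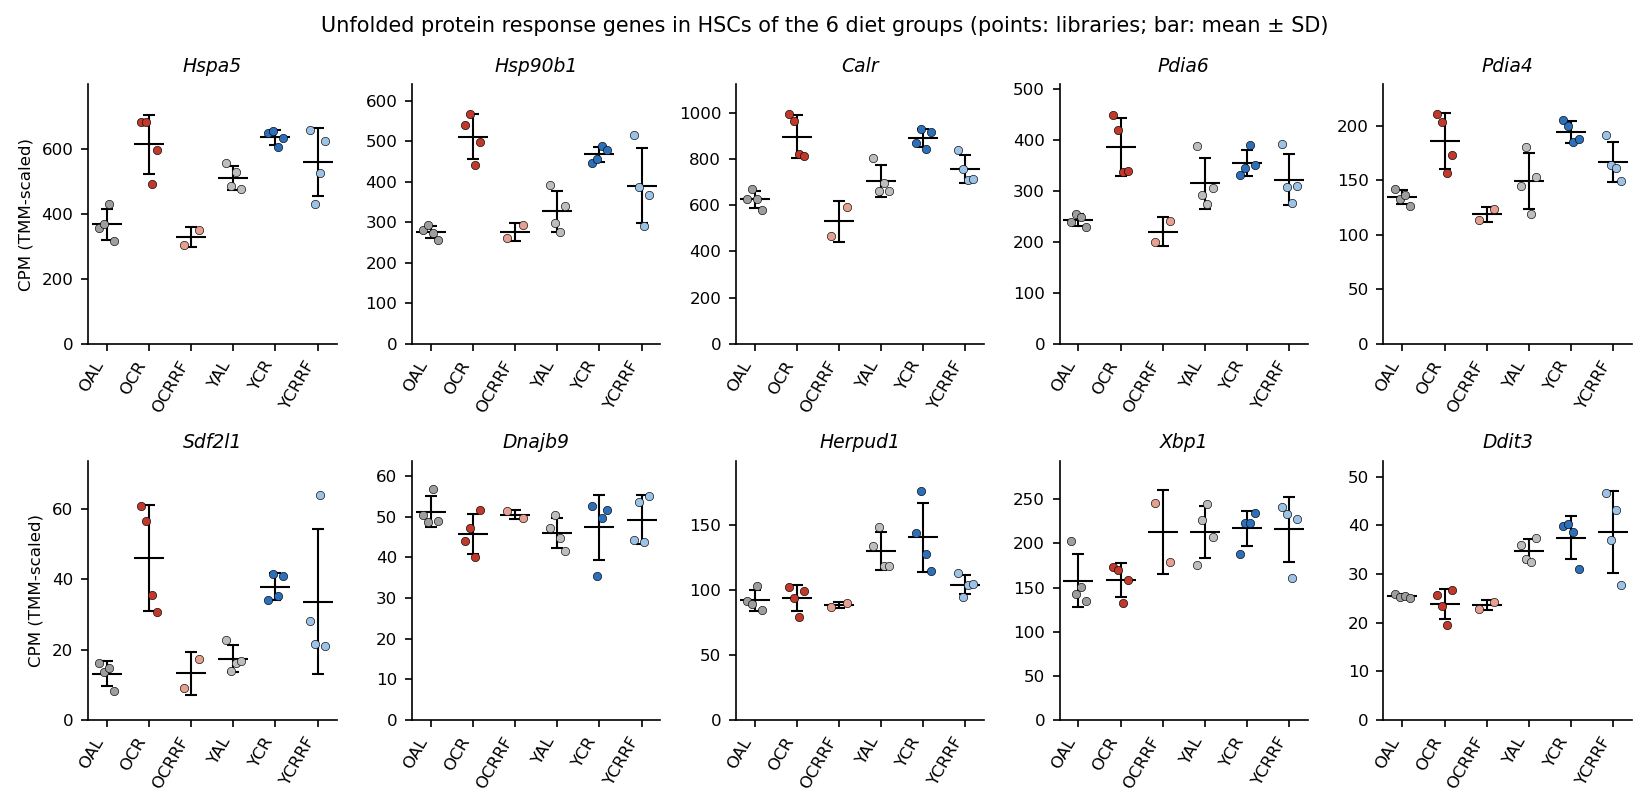
CPM of each member (y axis, TMM-scaled, from 0) in the 6 diet groups, with points for libraries and bars for the mean ± SD. For Hspa5, Hsp90b1, Calr, Pdia6, Pdia4 and Sdf2l1 all OCR points sit above all OAL and OCRRF points, while Dnajb9, Herpud1 and Ddit3 show overlapping OAL and OCR points.

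Markers of other cells were compared in the same libraries. The B and plasma cell list pools 9 genes of both cell types. It summed to 40.7 to 49.7 CPM in OCR and 40.9 to 89.6 CPM in OAL, with overlap. Mast cell and basophil markers summed to 4.89 to 7.35 CPM over 4 genes in OCR and 3.50 to 4.25 CPM in OAL, without overlap, with no marker at 0 in either group. Stem cell markers summed to 3510 to 4170 CPM in OCR and 4040 to 4610 CPM in OAL, and megakaryocyte markers to 238 to 338 against 232 to 256 CPM. Neutrophil lineage markers (217 to 325 against 249 to 379 CPM), erythroid markers (46.7 to 82.1 against 44.3 to 229 CPM), monocyte markers (14.1 to 15.9 against 13.7 to 17.1 CPM) and T cell markers (1.65 to 3.26 against 1.49 to 2.21 CPM) overlapped between OCR and OAL. The part of any of these lists in the UPR values was not tested.

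Refeeding old restricted mice for 4 weeks was compared next, with OCRRF against OCR. Hspa5, Hsp90b1, Calr, Pdia6, Pdia4 and Sdf2l1 fell, 6 of the 10 members, with no overlap between OCRRF and OCR libraries, and the rule called 3.41% of 32577 genes. The OCR libraries also entered the comparison with OAL, so the signs of both are not independent. A pattern of every OCRRF library below every OCR library was met by 10.8% of genes, since OCRRF has 2 libraries. Hspa5 read 305 and 349 CPM after refeeding and fell by 0.97 on the log2 scale (SE 0.135, adjusted p = 5.11e-06 by edgeR). Hsp90b1 read 260 and 292 CPM, a log2 fold change of -0.95 (SE 0.127, adjusted p = 2.62e-06 by edgeR). Calr read 467 and 594 CPM and fell by 0.82 (SE 0.129, adjusted p = 4.34e-05 by edgeR). All 3 chaperones were below the OCR range in both refed libraries. At an unadjusted p below 0.05 there were 7 members and 16.9% of all genes, and DESeq2 called 6 members and 7.22% of all genes.

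Pdia6 at 199 and 240 CPM and Pdia4 at 113 and 124 CPM gave log2 fold changes of -0.88 (SE 0.134) and -0.71 (SE 0.131), with edgeR adjusted p of 3.01e-05 and 0.000489. Sdf2l1, at 9.00 and 17.4 CPM, again moved most, by -1.87 (SE 0.224, adjusted p = 3.4e-07 by edgeR). The median over the 10 members was -0.77 against 0.11 over all genes tested. Xbp1 was higher without passing the test: at 179 and 246 CPM both refed libraries were above all 4 OCR libraries (log2 fold change 0.37, SE 0.132, adjusted p = 0.132 by edgeR). It passed in 2 of 11 alternatives, without OCRRF replicate 2 (0.63) and with TMM factors from genes at 5 CPM or more (0.50). Without OCRRF replicate 1 Calr (-0.70) and Pdia4 (-0.69) no longer passed. Dnajb9, Herpud1 and Ddit3 overlapped, with log2 fold changes of 0.09, -0.15 and -0.08.

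Several marker lists also separated the refed from the restricted old libraries. Megakaryocyte markers summed to 208 and 209 CPM in OCRRF and 238 to 338 CPM in OCR, and mast cell and basophil markers to 3.59 and 4.33 against 4.89 to 7.35 CPM, so both were lower after refeeding. Monocyte markers, at 17.1 and 18.7 against 14.1 to 15.9 CPM, and T cell markers, at 3.31 and 3.45 against 1.65 to 3.26 CPM, were higher. Stem cell markers (3550 and 3610 against 3510 to 4170 CPM), neutrophil lineage markers (321 and 351 against 217 to 325 CPM), erythroid markers (60.2 and 163 against 46.7 to 82.1 CPM) and B and plasma cell markers (48.9 and 53.4 against 40.7 to 49.7 CPM) overlapped. No marker was at 0 in either group, and the part of these lists in the values of the members was not tested.

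Against OAL, the refed old HSCs showed no called member, while the rule called 4.14% of 31816 genes. By edgeR 3 members had an unadjusted p below 0.05, as did 26.9% of all genes, and DESeq2 called 1, Calr, and 12.3% of all genes. Log2 fold changes of the 6 restriction-responsive members lay between -0.25 (Calr; SE 0.084) and -0.01 (Hsp90b1; SE 0.0727), and that of Xbp1 was 0.42 (SE 0.132, adjusted p = 0.0708 by edgeR). The sign of several of these small differences turned with the scaling: with TMM factors from genes at 5 CPM or more the median over all genes shifted by 0.14, and Hsp90b1 read 0.14.

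The young groups posed the same question after a restriction of 4 weeks. In YCR against YAL, Sdf2l1 was the only member called, where 0.257% of 18680 genes were. Sdf2l1 read 14.0, 16.1, 16.9 and 22.8 CPM in YAL and 34.0, 35.2, 40.9 and 41.5 CPM in YCR, a log2 fold change of 1.14 (SE 0.196, adjusted p = 0.0447 by edgeR). The call was lost with the replicate number added to the model (replicate block) and in 7 of 8 fits that left out a library, all but the one without YAL replicate 1, while the log2 fold change stayed between 1.04 and 1.19 in those lost.

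Hspa5, Hsp90b1, Calr and Pdia4 did not pass, yet their libraries did not overlap. Hspa5 read 475, 484, 528 and 555 CPM in YAL and 604, 633, 650 and 655 CPM in YCR (log2 fold change 0.34, SE 0.0663, adjusted p = 0.0705 by edgeR). Hsp90b1 read 277, 298, 340 and 391 CPM against 446, 458, 479 and 488 CPM (0.54, SE 0.105, adjusted p = 0.0693 by edgeR). Calr read 662, 664, 696 and 808 CPM against 845, 872, 918 and 930 CPM (0.35, SE 0.0742, adjusted p = 0.0906 by edgeR). In all 3 the YCR libraries were closer to each other than the YAL libraries were. Pdia4 measured 118, 144, 153 and 180 CPM in YAL and 184, 187, 200 and 205 CPM in YCR (0.40, SE 0.118, adjusted p = 0.247 by edgeR).

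Including Sdf2l1, 5 members had every YCR library above every YAL library, a pattern of 2.49% of genes tested. By edgeR 5 members had an unadjusted p below 0.05, where 9.29% of all genes did, and DESeq2 called 5 members and 2.43% of all genes. Pdia6 overlapped, at 274 to 388 CPM in YAL and 331 to 390 CPM in YCR, as did Xbp1, Ddit3, Dnajb9 and Herpud1, with log2 fold changes from 0.05 to 0.19 for these 5. B and plasma cell markers summed to 49.3, 222, 246 and 411 CPM in YCR against 61.6 to 109 CPM in YAL, and megakaryocyte markers to 231, 314, 356 and 387 CPM against 164 to 241 CPM. For both lists 3 of 4 YCR libraries were above every YAL library, and their part in the young values was not tested.

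Whether old and young HSCs responded differently was tested as an interaction. No member was called by edgeR in that interaction, where 0.0424% of 28328 genes were, and DESeq2 called none of them and 0.731% of all genes. At an unadjusted p below 0.05 there were 4 members and 8.93% of all genes. For those 4 the old minus young difference on the log2 scale was 0.43 (SE 0.137) for Hspa5, 0.38 (SE 0.13) for Hsp90b1, 0.51 (SE 0.146) for Pdia6 and 0.68 (SE 0.315) for Sdf2l1, none of which passed (edgeR adjusted p of 0.316 to 0.543). Age went together with the length of restriction, 4 weeks or lifelong, and with the source of the mice, and these cannot be told apart.

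After refeeding, the young values were scattered. YCRRF read 428, 525, 625 and 659 CPM for Hspa5, 292, 366, 387 and 515 CPM for Hsp90b1, and 21.0, 21.5, 28.0 and 64.0 CPM for Sdf2l1. The highest YCRRF library exceeded every YCR library for each of these 3 genes. YCRRF replicate 3, the library that stood apart, held the lowest Hsp90b1 and the highest Sdf2l1 value. Without it the log2 fold change of Sdf2l1 went from -0.19 to -0.71 against YCR and from 0.96 to 0.43 against YAL, and that of Hsp90b1 from -0.28 to -0.16 and from 0.26 to 0.37, with no member called. Neutrophil lineage markers summed to 471 to 1840 CPM in YCRRF, 125 to 496 CPM in YCR and 134 to 804 CPM in YAL, and their part in these values was not tested. No member was called by edgeR against YCR, where the rule called 0.0102% of 19535 genes, or against YAL, where it called 0 of 19334 genes (0%). At an unadjusted p below 0.05 there were 2 members in each comparison, Calr and Herpud1 against YCR and Herpud1 and Sdf2l1 against YAL, where 7.27% and 3.69% (714) of all genes had one. DESeq2 called no member, and 1.43% and 0.0776% (15) of all genes. Herpud1 was lower in every YCRRF library, at 94.8, 104, 105 and 113 CPM, than in any YCR (115, 128, 144 and 176 CPM) or YAL library (119, 119, 134 and 149 CPM). Its log2 fold changes were -0.45 (SE 0.147) and -0.32 (SE 0.123). How many of all genes lacked overlap in these comparisons was not counted.

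**Figure D3:**
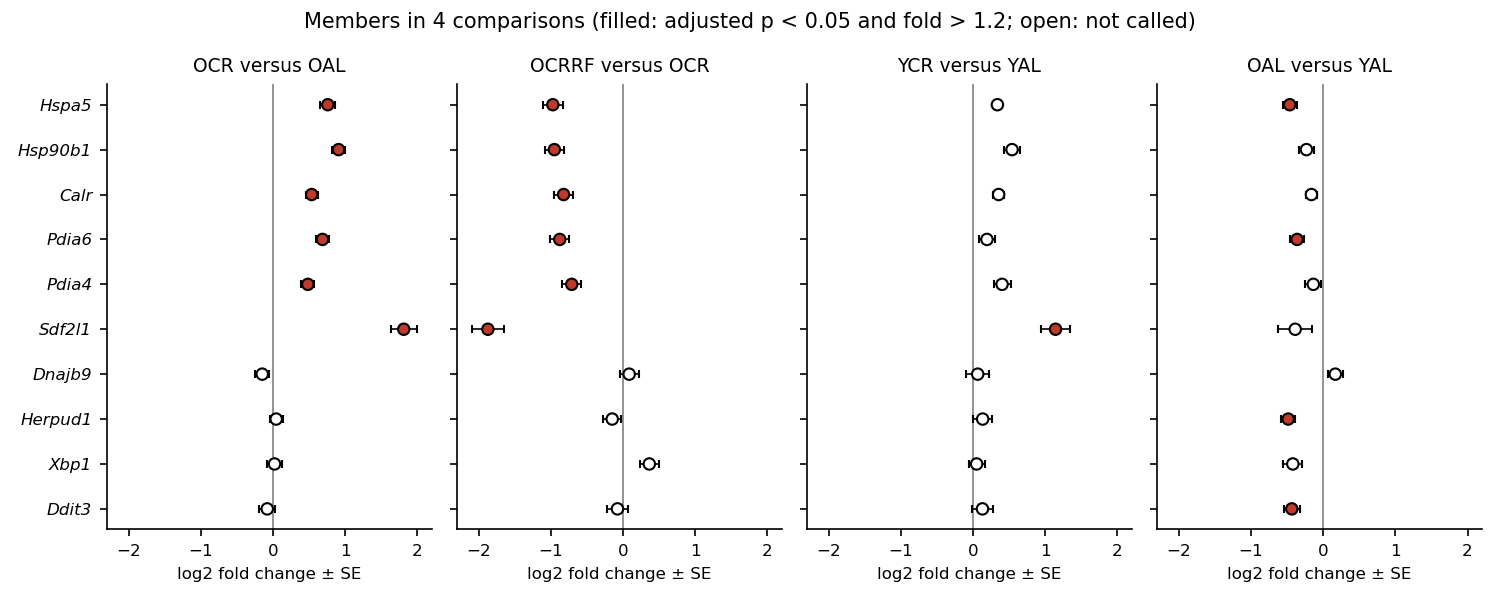
Log2 fold changes (x axis) with SE bars of the 10 members in 4 comparisons, with filled points for called members. Hspa5, Hsp90b1, Calr, Pdia6, Pdia4 and Sdf2l1 are filled to the right of 0 for OCR versus OAL and to the left of 0 for OCRRF versus OCR, which share the OCR libraries, and Sdf2l1 has the largest values, 1.81 and -1.87.

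Under ad libitum feeding, OAL was set against YAL. Old and young mice had different sources, so differences given here as with age cannot be told apart from source. In old HSCs 4 members were lower and none was higher, while the rule called 14.8% of 23525 genes and 7.93% as lower. Herpud1, at 84.6 to 103 CPM in OAL and 119 to 149 CPM in YAL, fell by 0.48 on the log2 scale (SE 0.0957, adjusted p = 0.00894 by edgeR). Hspa5, at 315 to 428 against 475 to 555 CPM, fell by 0.46 (SE 0.0942, adjusted p = 0.0101 by edgeR). Ddit3, at 25.1 to 26.0 against 32.5 to 37.4 CPM, fell by 0.44 (SE 0.109, adjusted p = 0.0227 by edgeR). The libraries of these 3 genes did not overlap, a pattern whose share over all genes was not counted for this comparison. Pdia6 fell by 0.36 (SE 0.101, adjusted p = 0.0353 by edgeR), also without overlap, and Xbp1 had a log2 fold change of -0.42 (SE 0.133) that did not pass (edgeR adjusted p = 0.0551). It passed in 4 of 13 alternatives, by DESeq2 (-0.38), without the filter on low counts (-0.44), without OAL replicate 1 (-0.56) and without YAL replicate 1 (-0.51). At an unadjusted p below 0.05 there were 6 members and 30.8% of all genes, and DESeq2 called 5 members and 20.2% of all genes.

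The members called in OCR against OAL kept that call in 13 of 13 alternatives. With age Hspa5 and Herpud1 did so too, while Ddit3 kept its call in 7 and Pdia6 in 5. Pdia6 and Ddit3 lost theirs with TMM factors from genes at 5 CPM or more and with the replicate block, and without each of OAL replicates 1 to 4 in turn. Pdia6 also lost it with DESeq2 size factors and without YAL replicate 1. Old and young libraries also differed in the number of genes detected, without overlap, and its part in these values was not tested. For Hspa5 the OCR mean of 614 ± 91.1 CPM and the YCR mean of 635 ± 22.9 CPM (SD, n = 4 each) stood side by side above both ad libitum groups, and for Calr 899 ± 94.9 and 891 ± 39.5 CPM. The means of Xbp1 and Ddit3 were lower in OCR than in YCR, 159 ± 18.7 against 217 ± 20.0 CPM and 23.8 ± 3.12 against 37.5 ± 4.37 CPM, a contrast that was not tested.

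Other genes of the pathway were read from lists grouped by function. Among 13 other ER chaperones and cochaperones, 7 rose in OCR against OAL and none fell, with a list median of 0.34 beside 0.02 over all genes. They included Hyou1, an ER chaperone that helps BiP exchange nucleotide (log2 fold change 0.90), the secreted ER stress-induced factors Manf (0.79) and Creld2 (0.75), and the cochaperone Dnajb11 (0.55). Of 12 disulfide formation genes, 2 rose, the isomerases P4hb (0.38) and Pdia3 (0.37). Of 15 ERAD genes, 3 rose, Derl3 (1.33) and Selenos (0.54), which act at the retrotranslocation step, and the mannosidase-like Edem1 (0.37). Over all 7 lists 14 of 83 genes rose (16.9%), where 2.54% of all genes did.

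In translocation into the ER 1 of 15 genes rose, the signal peptidase subunit Spcs3 (0.55), and in ER to Golgi transport 1 of 12, the COPII coat component Sec24d (1.29). None of the 8 sensors and transducers was called by edgeR (1 at an unadjusted p below 0.05 beside 16.2% of all genes, none by DESeq2 beside 7.1%). Of the 8 genes downstream of ATF4, 6 did not pass and 2 were lower, where 3.03% of all genes were: Trib3, a pseudokinase (-0.996), and Nupr1, a small stress-induced chromatin protein (-0.40). The ATF4 list had a median log2 fold change of -0.28.

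After refeeding, 7 of the 13 other chaperones fell in OCRRF against OCR, led by Manf (-1.02) and Creld2 (-0.93). So did 3 disulfide formation genes, among them Pdia3 (-0.61) and P4hb (-0.60), 2 ERAD genes (Selenos at -0.80 and Edem1 at -0.64), 5 translocation genes led by Spcs3 (-0.78), and 3 transport genes led by Sec24d (-1.35). Of the sensors and transducers 1 fell, Atf6b (-0.46), and Trib3 rose (0.81). In all 21 of 83 listed genes fell (25.3%), where 2.71% of all genes did. Against OAL, 8 of 83 listed genes were called in refed HSCs, all lower (9.64%, beside 2.48% of all genes), among them Asns, the ATF4-dependent asparagine synthetase (-0.56), and the chaperone gene Fkbp11 (-0.49). The direction of calls in that comparison turned with the scaling, from 528 genes higher and 788 lower to 754 higher and 54 lower when the TMM factors came from genes at 5 CPM or more.

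In YCR against YAL no gene of these 7 lists was called by edgeR. At an unadjusted p below 0.05, which 9.29% of all genes had, were 7 of 13 other chaperones and 0 to 3 genes of each other list, and DESeq2 called 1 other chaperone, 1 translocation gene, 1 transport gene and 2 ATF4-dependent genes, the last 2 as lower. With age, OAL against YAL, the ATF4-dependent list was split, with 2 of 8 higher, the mTORC1 inhibitor Ddit4 (1.69) and Nupr1 (1.22), and 3 lower, led by Sesn2 (-0.52) and Trib3 (-0.49). Of 75 genes in the other lists 9 were lower (12%, beside 7.93% of all genes), among them Selenos (-0.71) and Creld2 (-0.48), and 1 was higher, the site-2 protease Mbtps2 that cuts ATF6 (0.87). In the knockdowns no listed gene was called by edgeR, with 0 to 4 genes of a list at an unadjusted p below 0.05 (8.9% and 9.85% of all genes) and 0 to 2 called by DESeq2 (1.51% and 1.65%).

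**Figure D4:**
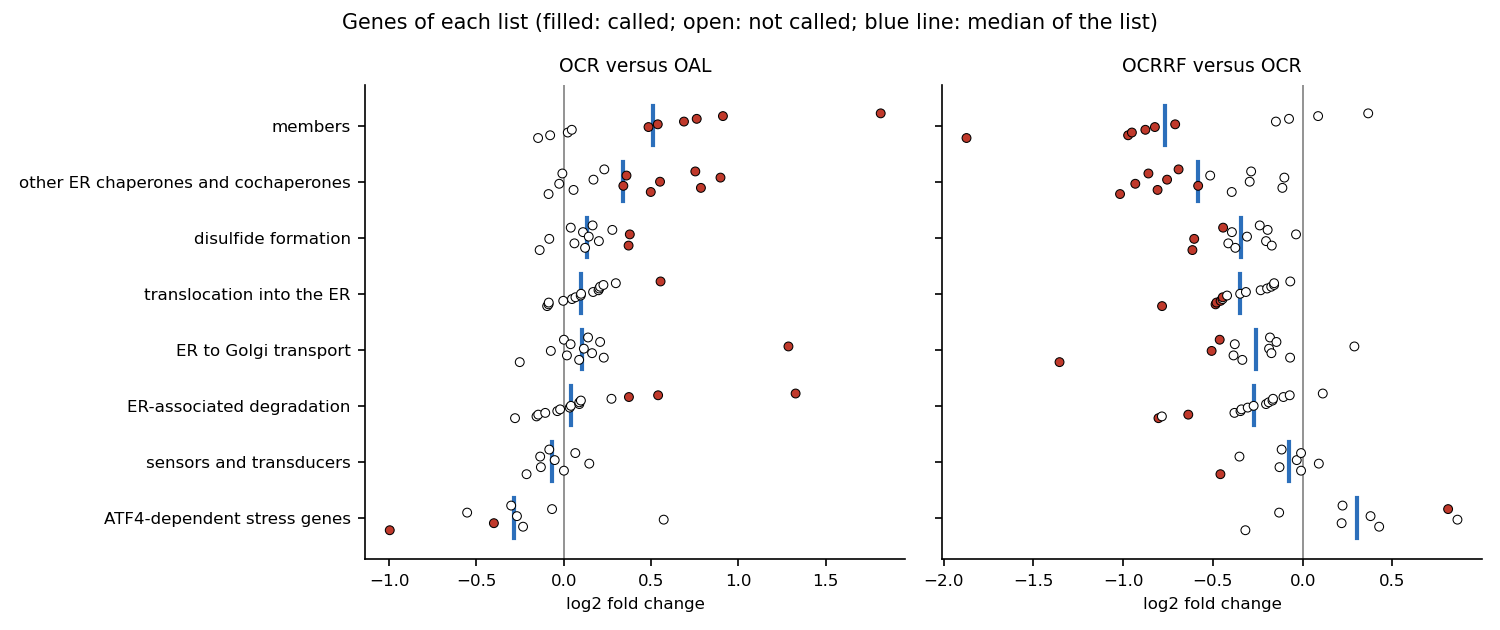
Log2 fold changes (x axis) of single genes in the members and 7 other lists for OCR versus OAL and OCRRF versus OCR, with filled points for called genes and a blue line for each list's median. The members and the other ER chaperones lie farthest from 0, with medians of 0.51 and 0.34 on the left and -0.77 and -0.58 on the right, while the ATF4-dependent genes have medians of -0.28 and 0.30.

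The 4 members with a full ER stress element were all called in OCR against OAL, and so were Pdia4 and Sdf2l1, whose promoter windows hold none. Of 33 other genes with the element, 25 were tested in that comparison, of which 3 rose (Derl3, Creld2 and the BiP cochaperone Dnajc3) and 1 fell (Tdrd9). Their median log2 fold change was 0.16 beside 0.02 over all genes. Over all genes tested, 2.54% rose and 3.03% fell. The 3 that rose also belong to the pathway lists above, where they are already counted. Most of the 25 genes with the element were not called.

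Across the 22 diet libraries, the members fell into a group that varied together and a group that did not. With log2 CPM taken as the deviation from the mean of the same age, the Pearson r of each gene with the mean standardized deviation of the other members was 0.89 for Pdia4, 0.87 for Hsp90b1, 0.85 for Hspa5, 0.85 for Calr, 0.83 for Pdia6 and 0.71 for Sdf2l1. It was 0.29 for Herpud1, 0.13 for Ddit3, -0.14 for Xbp1 and -0.30 for Dnajb9. These values describe libraries that share depth and composition within a library and group differences between them.

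Among 10794 other genes with mean levels of 10 CPM or more, those whose deviations followed the mean of the 10 members most closely over the same 22 libraries were Hnrnpc (r = 0.96), an RNA-binding protein of the nucleus, Fkbp4 (0.92), a cytosolic HSP90 cochaperone, Rangap1 (0.91), the activator of the Ran GTPase, and Wee1 (0.90), a cell cycle kinase. Manf (0.89), 1810014B01Rik (0.89), the desaturase Scd2 (0.87), P4hb (0.86), the HSP90 cochaperone Ptges3 (0.84) and the 14-3-3 protein Ywhah (0.84) came next. The exons of 1810014B01Rik overlap those of the member Hsp90b1, and the part of shared reads in its r was not tested. The 10 old libraries alone gave r of 0.88 to 0.97 and the 12 young libraries 0.69 to 0.96 for these genes. Manf, P4hb and Scd2 act in the ER.

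The promoter readouts of the series were then taken for the members. In the 2 OCR libraries of H3K4me3, a mark of active promoters, the deposited mean signal per base over 750 bases ranged from 27.7 (Sdf2l1) to 51.7 (Dnajb9), where the medians over 31552 transcripts were 10.2 and 9.64. In those of H3K27me3, a repressive mark read over 2000 bases, Sdf2l1 had 1.117 and 1.073 against medians of 0.312 and 0.316, at percentiles 81.2 and 80.4 among transcripts. The other 9 members were at percentile 42.6 or below. The member with the largest change in RNA thus had the lowest H3K4me3 and the highest H3K27me3 of the 10. OAL libraries of these marks and of ATAC-seq were not analysed here, so no change of either with restriction is given.

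ATAC-seq peaks of open chromatin lay within 1000 bases of the start site for 9 of the 10 members, a property of 57.7% of RefSeq start sites, and none was listed there for Hspa5. These members had 10 peaks, of which that of Hsp90b1, at a log2 CPM of 1.36, was too low for a call. None of the other 9 was called between OCR and OCRRF by edgeR at an adjusted p below 0.05, a fold above 1.5 and a log2 CPM above 1.5, where 0.221% of 123372 peaks were. The log2 fold changes of the 10 (OCR minus OCRRF) ran from -0.16 to 0.05, with 2 peaks at an unadjusted p below 0.05, those of Calr (-0.14, SE 0.067) and Herpud1 (-0.16, SE 0.071), as had 11.7% of all peaks, and none was called by DESeq2, which called 0.148%. Both were lower in OCR. At the Sdf2l1 promoter the stronger peak (chr16:17131975-17132793) had a log2 fold change of -0.03 (SE 0.0749), beside an RNA log2 fold change of -1.87 in OCRRF against OCR.

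PU.1 peaks came from ChIP-seq of the myeloid transcription factor PU.1 in a pair of libraries for each old diet group. Those taken as OAL carry OWT in their titles and the treatments control and None. Over these 6 libraries 1 member had a peak within 1000 bases, Dnajb9 in OAL replicate 2 (chr12:44210077-44210363, 5.11-fold enrichment), where 2.20% of start sites had one. In the other 5 libraries no member had a peak that close, and 1.66 to 4.2% of start sites did, so that with 10 members these counts cannot be told from the share over all start sites. Another peak stood at -2364 bases from the start of Pdia6 in OCR replicate 1 (5.90-fold enrichment). Neither peak was listed in the other replicate of its group.

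The knockdowns tested Kdr, which encodes the VEGF receptor KDR, with or without the BMP receptor gene Bmpr1a in transplanted aged HSCs. Kdr itself read 6.04 and 6.07 CPM in GScr and 1.93, 2.03, 2.22 and 3.28 CPM in KdrKD, a log2 fold change of -1.35 (SE 0.251) that did not pass after adjustment over all genes (edgeR adjusted p = 0.247). In the double knockdown Kdr read 3.98 and 4.63 CPM in DScr and 0.556 to 1.60 CPM in the 4 DKD libraries (-1.86, SE 0.373, adjusted p = 0.272 by edgeR). Kdr was lower in every knockdown library. Bmpr1a read 4.43 and 5.21 CPM in DScr, 4.44 and 0.657 CPM in DKD1, and 2.22 and 0.595 CPM in DKD2 (-1.29, SE 0.717, adjusted p = 0.602 by edgeR). For Bmpr1a the library labelled DKD1 replicate 1 was inside the DScr range.

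No UPR gene was called in either knockdown. In KdrKD against GScr the rule called 0.0149% of 20098 genes, no member had an unadjusted p below 0.05 (8.9% of all genes did), and DESeq2 called none. Hspa5 read 630 and 731 CPM in GScr and 654, 673, 717 and 962 CPM in KdrKD (log2 fold change 0.14, SE 0.151). Sdf2l1 read 48.1 and 70.8 CPM against 52.6, 58.0, 61.7 and 77.6 CPM (0.07, SE 0.184). Over the 10 members the log2 fold changes ran from -0.12 (Hsp90b1) to 0.17 (Herpud1), and the libraries overlapped for each. Stem cell markers summed to 2710 to 3110 CPM in KdrKD and 3300 to 3500 CPM in GScr, lower without overlap. B and plasma cell markers (42.9 to 59.8 against 34.5 to 40.2 CPM) and monocyte markers (14.4 to 29.7 against 11.7 to 13.3 CPM) were higher without overlap. Neutrophil lineage markers (916 to 3180 against 439 to 2130 CPM) and the other lists overlapped. The part of these lists in the values of the members was not tested.

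In DKD against DScr the rule called 0.00498% of 20072 genes, 1 member had an unadjusted p below 0.05 (9.85% of all genes did), and DESeq2 called none. That member was Herpud1, at 99.2 and 104 CPM in DScr and 114, 114, 119 and 131 CPM in DKD (log2 fold change 0.23, SE 0.0752, adjusted p = 0.389 by edgeR). It was higher in 4 of 4 knockdown libraries than in both scramble libraries, a pattern whose share over all genes was not counted. Hspa5 read 649 and 758 CPM against 611, 668, 713 and 716 CPM (-0.05, SE 0.0846), and Hsp90b1 554 and 604 CPM against 514, 521, 544 and 560 CPM (-0.11, SE 0.0555). The other members overlapped. Over both knockdowns the SEs of the members' log2 fold changes ran from 0.0505 to 0.184, with 2 scramble libraries in each. Neutrophil lineage markers summed to 469 to 3060 CPM in DKD and 1900 to 4720 CPM in DScr. Stem cell markers stood at 2580 to 2990 and 2890 to 2920 CPM, and monocyte markers at 11.5 to 15.4 and 15.4 to 23.2 CPM. B and plasma cell markers were higher in DKD without overlap, at 46 to 62.4 against 35.7 to 43.6 CPM. The part of these lists in the values of the members was not tested.

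Per kilobase, Sdf2l1 in the transplanted GScr cells, at 53.6 ± 14.5 CPM per kb (SD, n = 2), ranked 7th, and Calr was again first at 211 ± 20.2. The transplanted and the diet libraries were sorted, sequenced and scaled separately, so no level was compared between them.

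**Figure D5:**
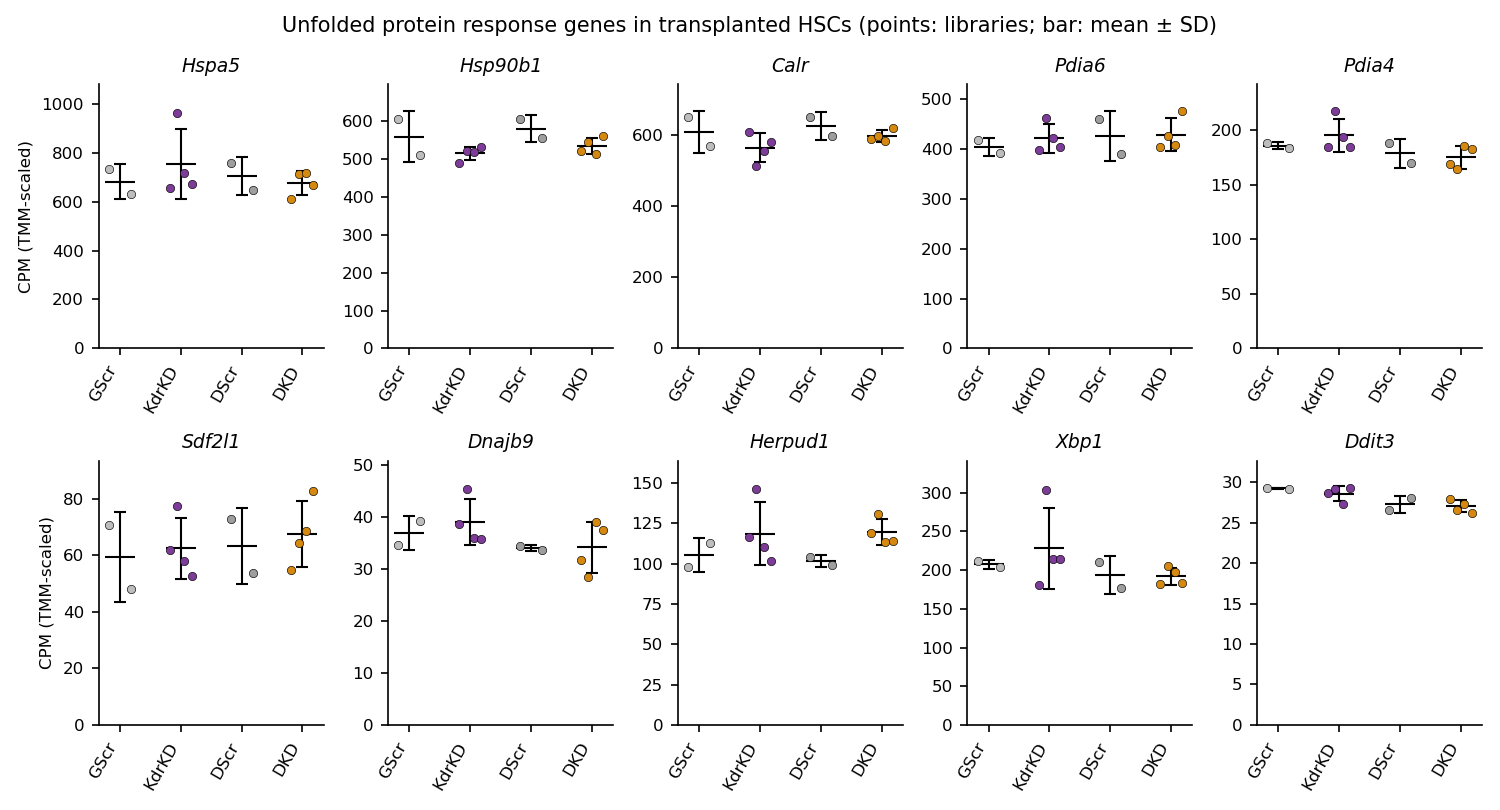
CPM of each member (y axis, TMM-scaled within the transplanted libraries, from 0) in the scramble and knockdown groups, with points for libraries and bars for the mean ± SD. Scramble and knockdown points overlap in every panel except Herpud1 in the double knockdown, where 114 to 131 CPM stand above 99.2 and 104 CPM.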

How the data were processed

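RNA-seq, ATAC-seq, histone and PU.1 ChIP-seq values of mouse HSCs were used as the authors deposited them. The RNA-seq files hold featureCounts counts per gene, which the authors made by trimming reads, mapping them to mm10 with STAR and counting on GENCODE M22 gene models. How strand and multi-mapping reads were treated in the counting is not given in the sources used here. The authors deposited ATAC-seq counts of reads in 131918 consensus peaks, histone signal averaged per base over a window at each transcript's start, and PU.1 peaks called by MACS2 on each library with their fold enrichment, a ratio, and -log10 q-value. PU.1 and histone files give no counts per region, so no counting error is given for them, and library totals listed by the study were not used here. Columns of no mapped sample numbered 0.

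The symbols and the pathway and marker lists were chosen with earlier results of these data known, and ER stress element II and the genes sharing an element were added after the data were seen. Named were the 10 symbols, from each pathway list up to 4 called genes with the largest change in OCR against OAL and up to 2 in each other comparison, the 10 genes most like the members' mean, Kdr and Bmpr1a, and the marker lists. Counts went through edgeR 4.0.16 in R 4.3.3: filterByExpr by group, TMM, and glmQLFit with glmQLFTest over all genes, each comparison on its own groups and the old minus young difference on all 4 groups. A call needed a fold above 1.2 and a p below 0.05 after Benjamini-Hochberg adjustment, and for ATAC-seq peaks a fold above 1.5 and a log2 CPM above 1.5. SEs are the absolute log2 fold change over the square root of F. Log2 CPM used a prior count of 2. The fits were tested on simulated counts with known changes. Gene positions and exon lengths are from GENCODE M21, and promoters from RefSeq GRCm38.p6.

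Deeper libraries have less counting error, and the totals are given with the results. Alternatives were DESeq2 1.42.0, its size factors, TMM factors from features with a mean of at least 5 CPM, no filter on low counts, a replicate block, and leaving out each library. Same-numbered libraries are not said to share an animal or day. Their deviations from the group means correlated at -0.17 to 0.19, so the numbers were not taken as pairs. OAL libraries of ATAC-seq and histone marks were not analysed here.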

Additional observations from a re-analysis of the deposited data

Results flagged for a closer look

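Over 60 groups of 4 libraries, one for each member and group, the gap of the highest or lowest library to its neighbour passed the 95% critical value of Dixon's test in 3, and chance alone passes about 1 in 20 groups. Xbp1 in YCRRF replicate 3 read 161 CPM, with the other 3 YCRRF libraries at 227 to 241 CPM. Ddit3 in YCR replicate 4 read 31.1 CPM, with the others at 38.7 to 40.4 CPM. Dnajb9 in YCR replicate 2 read 35.5 CPM, with the others at 49.8 to 52.5 CPM. None of these 3 genes was called in a young comparison with or without those libraries.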

How the results depend on the processing

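In OCR against OAL the number of members called was 6 in every alternative, including each fit without 1 library, where all genes called ranged from 1106 to 1655. In OCRRF against OCR the members called ranged from 4 to 7 and the genes from 352 to 2755 when 1 library was left out, with 2352 genes by DESeq2. In YCR against YAL the calls were 454 genes and 5 members by DESeq2, 368 and 2 without the filter on low counts, and 6 to 28 genes and 0 to 3 members without 1 library (3 without YAL replicate 1: Sdf2l1, Hsp90b1 and Calr). The old minus young difference gave 207 genes by DESeq2, 23 without the filter and 2 to 27 without 1 library, and 0 members throughout. OCRRF against OAL gave 3906 genes and 1 member by DESeq2, 3215 and 1 with its size factors, 808 and 1 with TMM factors from 5 CPM or more, 2684 and 2 without the filter, and 38 to 385 genes and 0 to 1 members without 1 library (Xbp1 without OAL replicate 1). The members gained there were Calr, at -0.32, -0.32 and -0.27 by DESeq2, its size factors and without the filter, and Xbp1, at 0.56 with the 5 CPM factors and 0.40 without the filter. YCRRF against YCR gave 280 genes by DESeq2, 1 with its size factors, 1 with the 5 CPM factors, 275 without the filter and 0 to 10 without 1 library, and YCRRF against YAL 15, 40 without the filter and 0 to 1 without 1 library, with 0 members throughout. OAL against YAL gave 6671 genes without the filter and 1475 to 5358 without 1 library, with 2 members with the 5 CPM factors and 2 to 5 without 1 library. The Kdr knockdown gave 303 genes by DESeq2, 82 without the filter and 0 to 12 without 1 library, and the double knockdown 332, 19 and 0 to 1, with 0 members throughout. Without 1 ATAC-seq library, 98 to 367 peaks were called and 0 at members. The cause of these moves was not tested.

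With the replicate block the calls were 7 genes and 0 members in YCR against YAL (Sdf2l1 at 1.16), 2 genes for the old minus young difference, 3437 in OCRRF against OCR, 2080 and 2 members (Calr and Xbp1) in OCRRF against OAL, 0 in YCRRF against YCR, 1651 and 2 members in OAL against YAL, 26 and 0 genes in the Kdr and the double knockdown, and 764 ATAC-seq peaks. No other count of members changed with it. Own-numbered libraries were the best match for 2 of 4 KdrKD libraries, the only 2 with a same-numbered scramble library. In every other comparison this held for at most 1 library. With 2 control libraries the deviations mirror each other, so there the check says little about pairing.

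The 5 CPM factors shifted the all-gene median by 0.13 on the log2 scale in OCRRF against OCR, 0.14 in OCRRF against OAL and 0.11 in OAL against YAL, and the share of calls that were higher from 20.4% to 37.2%, 40.1% to 93.3% and 46.5% to 70.5%. It went from 45.6% to 56.2% in OCR against OAL and from 41.0% to 58.1% for ATAC-seq peaks, and DESeq2 size factors gave 26.4% in OCRRF against OAL. Relative to all genes, the members' median stayed at -0.87 or -0.86, -0.22 and -0.42 in the first 3. Of the member values under alternatives, 1343 kept their call status, 22 gained a call, 24 lost one and 18 turned sign, none of them called. The 18 moved by more than the SE of the main fit, and smaller turns of sign in uncalled values count among the 1343. In OCRRF against OAL the 5 CPM factors gave Ddit3 0.02, Dnajb9 0.11, Herpud1 0.07 and Hsp90b1 0.14, while Herpud1 read 0.02 without OAL replicate 3 and Sdf2l1 -0.57 to 0.37 without either OCRRF library. Herpud1 in YCR against YAL read -0.01 to 0.22 without 1 library, lowest without YCR replicate 2. Without 1 library the Kdr knockdown gave Hsp90b1 -0.24 to 0.02 and Sdf2l1 -0.18 to 0.38, turned by a GScr library, and the double knockdown gave Hspa5 -0.15 to 0.06, Pdia4 up to 0.04, Xbp1 -0.13 to 0.12, Pdia6 down to -0.10 and Sdf2l1 -0.10 to 0.32, turned by a DScr library. For promoter peaks the range was -0.23 to 0.01 at Xbp1, -0.15 to 0.01 at Pdia4 and up to 0.48 at the weaker Sdf2l1 peak, turned by ATAC-seq OCRRF replicate 1, and the block 0.04 at the stronger Sdf2l1 peak.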
